A study of Mus musculus with 6 samples.

Results

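Transcripts of 9 genes of early lymphoid and B lineage development were examined in sorted mouse haematopoietic stem cells (HSCs). The genes were Dntt, Rag1, Il7r, Ebf1, Pax5, Vpreb1, Igll1, Cd79a and Cd79b. They were taken from the 49585 Ensembl genes of each count file by matching their symbols, and each matched 1 identifier. All 9 passed the filter on low counts, which kept 14785 genes. The cells came from the bone marrow of untreated C57BL/6 mice aged 8 to 16 weeks, with no transgene or gene deletion in either group. They were lineage-negative, Kit+ and Sca-1+, were gated further as CD48- and CD150+ and as CD34- and CD201+, and were then parted into CD38hi and CD38lo fractions. Those fractions are called CD38-positive and CD38-negative here, with 3 libraries each, and every library pooled the cells of 10 mice. The submitters' design matches the libraries in 3 pairs of 1 CD38-positive and 1 CD38-negative library. The lineage antibodies of the gate are not named in the labels.

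B lymphocytes arise in the bone marrow from multipotent progenitors that switch on lymphoid genes step by step, a process called lymphoid priming. Signals through the interleukin-7 receptor and the transcription factors EBF1 and PAX5 establish the B lineage, while the RAG recombinase and terminal transferase assemble and diversify antibody genes. The surrogate light chain then pairs with a new heavy chain in the pre-B cell receptor, which signals through CD79A and CD79B. Such transcripts in sorted stem cells are usually read as priming or as a few admixed cells, and bulk libraries cannot tell these apart. In bulk RNA, a change in the number of cells that express a gene and a change in RNA per cell cannot be told apart.

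Libraries held 16771180 to 18558610 gene-assigned reads, so 3 reads correspond to 0.166 to 0.183 CPM, the read count normalised to library size with the TMM method of edgeR. Such a floor covers counting error only, since the reads carry no molecular identifiers and are not independent of each other. All 12 stem cell markers examined, among them Procr, Slamf1, Kit and Mecom, had reads in every library, and their summed level was 796 to 2305 CPM. Such reads do not show purity. The 9 neutrophil markers examined also had reads in every library, and their summed level was 70125 to 159347 CPM. Cd38 was at 37.0, 46.3 and 58.3 CPM in CD38-positive libraries 1, 2 and 3 and at 24.2, 35.6 and 23.9 CPM in their CD38-negative partners.

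Every one of the 9 genes was detected in every library, at levels that spanned a wide range. On the scale of CPM per kilobase of exon, Cd79b had the highest mean over the 6 libraries at 35.8 (range 29.7 to 41.1), followed by Dntt at 35.2 (range 20.2 to 54.1). Both lay above 88.6% and 88.5% of the tested genes, respectively. Cd79a, Vpreb1 and Igll1 formed a middle group at 17.0, 15.0 and 14.2 CPM per kilobase. Il7r was at 1.64, Ebf1 at 0.793, Rag1 at 0.260 and Pax5 at 0.152 CPM per kilobase, and Pax5 lay above only 2.17% of the tested genes. The neighbours Cd79b and Dntt did not keep one order, since Cd79b was above Dntt in 4 of 6 libraries. Likewise Cd79a was above Vpreb1 in 4 libraries and Vpreb1 above Igll1 in 5, while each other step of the order held in 6 of 6.

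The bases before the start sites of the 9 genes were searched for letters bound by B lineage factors. RefSeq promoter windows of the GRCm38.p6 build were at hand for 8 of the 9 genes, and the 250 bases before each RefSeq start were used. Ebf1 had 2 windows, so the counts below are of genes while the shares are of windows. The E-box CAGGTG, bound by E proteins such as E2A, was present on either strand for 4 of the 8, in Rag1, Vpreb1, Igll1 and Cd79a, against 17.2% of all 32851 windows. The EBF core CCCNNGGG was found for 1 gene, Igll1, against 11.8% of windows. The ETS core GAGGAA, read by PU.1 and its relatives, was found for 3 genes (Cd79a, Vpreb1 and the second start of Ebf1; 23.3% of windows), and the Ikaros core TGGGAA for 2 (Rag1 and the second start of Ebf1; 21.6%). No match of any of these 4 motifs was found in the windows of Dntt, Il7r and Pax5. A match is a stretch of letters and not a shown binding site. The 4 promoters with an E-box are printed to show where it lies, with E-box and EBF core matches in capitals, each from 250 bases before the RefSeq start up to that start:
Rag1 (chr2:101649533-101649782, minus strand): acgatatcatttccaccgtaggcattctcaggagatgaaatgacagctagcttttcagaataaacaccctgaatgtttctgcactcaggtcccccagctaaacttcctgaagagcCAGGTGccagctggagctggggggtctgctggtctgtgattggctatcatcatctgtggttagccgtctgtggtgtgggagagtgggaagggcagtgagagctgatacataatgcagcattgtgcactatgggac
Vpreb1 (chr16:16869256-16869505, minus strand): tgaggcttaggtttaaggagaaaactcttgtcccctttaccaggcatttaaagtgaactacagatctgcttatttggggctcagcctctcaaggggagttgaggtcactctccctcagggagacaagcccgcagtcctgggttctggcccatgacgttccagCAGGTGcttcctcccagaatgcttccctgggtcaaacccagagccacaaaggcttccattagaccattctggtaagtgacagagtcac
Igll1 (chr16:16863986-16864235, minus strand): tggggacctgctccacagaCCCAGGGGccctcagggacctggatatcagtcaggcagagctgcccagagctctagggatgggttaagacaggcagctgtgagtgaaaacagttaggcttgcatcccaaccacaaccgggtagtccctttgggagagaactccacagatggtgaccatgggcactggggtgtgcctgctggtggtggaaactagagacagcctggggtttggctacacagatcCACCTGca
Cd79a (chr7:24897247-24897496, plus strand): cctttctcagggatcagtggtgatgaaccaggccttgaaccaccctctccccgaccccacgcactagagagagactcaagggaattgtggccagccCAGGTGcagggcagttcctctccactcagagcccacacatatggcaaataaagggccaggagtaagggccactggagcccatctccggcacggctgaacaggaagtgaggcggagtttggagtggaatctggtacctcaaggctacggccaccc
The E-box began 8 bases before the start in Igll1, 88 in Vpreb1, 135 in Rag1 and 154 in Cd79a. The EBF core of Igll1 lay farther out, 231 bases before the start. These distances are counted from the RefSeq starts, which need not be the outermost starts of the GENCODE genes whose positions are given with each gene. The RefSeq start of Vpreb1 lies 1588 bases inside its GENCODE gene, so its whole window is within that gene, and that of Cd79a lies 116 bases inside, so its window runs past the GENCODE start. The start of Igll1 is the same in both, and that of Rag1 lies 31 bases outside the GENCODE gene.

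Between CD38-positive and CD38-negative libraries, none of the 9 genes differed past the threshold. In the paired edgeR quasi-likelihood test 0 of 9 had an adjusted p-value below 0.05, where 0.0135% of the 14785 tested genes did, and 0 of 9 had an unadjusted p-value below 0.05, where 5.08% of genes did (2.47% higher and 2.61% lower in CD38-positive libraries). The edgeR adjusted p-values ran from 0.926 for Dntt to 0.994 for Vpreb1. Fitted log2 fold changes, CD38-positive relative to CD38-negative, were above 0 for 5 genes and below 0 for 4, with a median of 0.066 beside 0.00040 over all tested genes. The CPM ranges of the populations overlapped for every gene, so 0 of 9 were separated, against 6.53% of tested genes. Standard errors of 0.22 to 0.56 left wide intervals, so these results do not show that the populations are alike.

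The 9 genes differed in opposite directions in pairs 1 and 3. In pair 1 all 9 genes were higher in the CD38-positive library, by 0.064 (Rag1) to 1.11 (Cd79a) on the log2 scale, with a median of 0.94. In pair 3 all 9 were lower in the CD38-positive library, with log2 differences from -1.41 (Pax5) to -0.020 (Ebf1) and a median of -0.46. Pair 2 was split, with Dntt, Il7r and Pax5 higher and the other 6 lower. With unscaled library totals in place of the scaled sizes, Rag1 turned to -0.063 in pair 1 and Ebf1 to 0.11 in pair 3, which gave 8 higher in pair 1 and 8 lower in pair 3. Among all tested genes 50.3% were higher in the CD38-positive library of pair 1 and 52.6% in that of pair 3. With scaled sizes, the opposition of pairs 1 and 3 meant that none of the 9 could keep 1 direction throughout. It also meant that none of them could separate the populations. By comparison, 24.5% of tested genes had 1 direction in all 3 pairs. The 9 genes were positively correlated across libraries, so their counts are not independent observations.

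**Figure D1:**
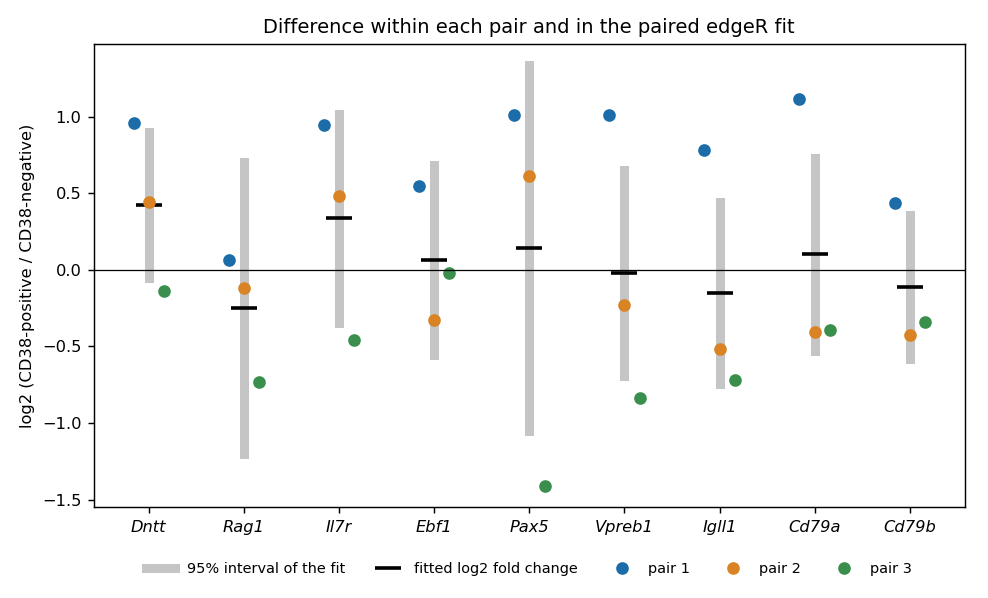
Log2 ratio of CD38-positive to CD38-negative CPM for each gene (y axis) in pairs 1, 2 and 3 (coloured points), with the fitted log2 fold change of the paired edgeR test (black dash) and its 95% interval (grey bar). All 9 blue points of pair 1 lie above 0 and all 9 green points of pair 3 below it, although with unscaled library totals Rag1 in pair 1 and Ebf1 in pair 3 cross 0, and every grey bar spans 0.

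The highest and lowest values of most of the 9 genes came from libraries of the same population. CD38-positive library 1 had the highest CPM for 5 of the 9 genes, against 15.6% of all tested genes, and CD38-positive library 3 had the lowest for 8 of 9, against 12.4%. These are the libraries with the largest such counts of the 6. The pattern was not particular to the 9 genes. CD38-positive library 1 was also highest for 8 of 9 neutrophil and 6 of 7 erythroid markers, but for 0 of 12 stem cell markers. CD38-positive library 3 was lowest for 5 of 7 erythroid and 1 of 9 neutrophil markers. The summed level of the 9 genes was 320, 253 and 143 CPM in CD38-positive libraries 1, 2 and 3 and 181, 259 and 186 CPM in their CD38-negative partners. The extremes of the whole set were thus both CD38-positive libraries, 2.24-fold apart. As means the sums were 239 ± 89.4 CPM (SD, n = 3) and 209 ± 43.8 CPM (SD, n = 3), and the difference was smaller than either SD. The log2 ratio of these means, 0.19, turned to -0.17 without pair 1 and was 0.34 without pair 2 and 0.38 without pair 3. Dntt alone gave 27.4% to 45.3% of the sum.

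**Figure D2:**
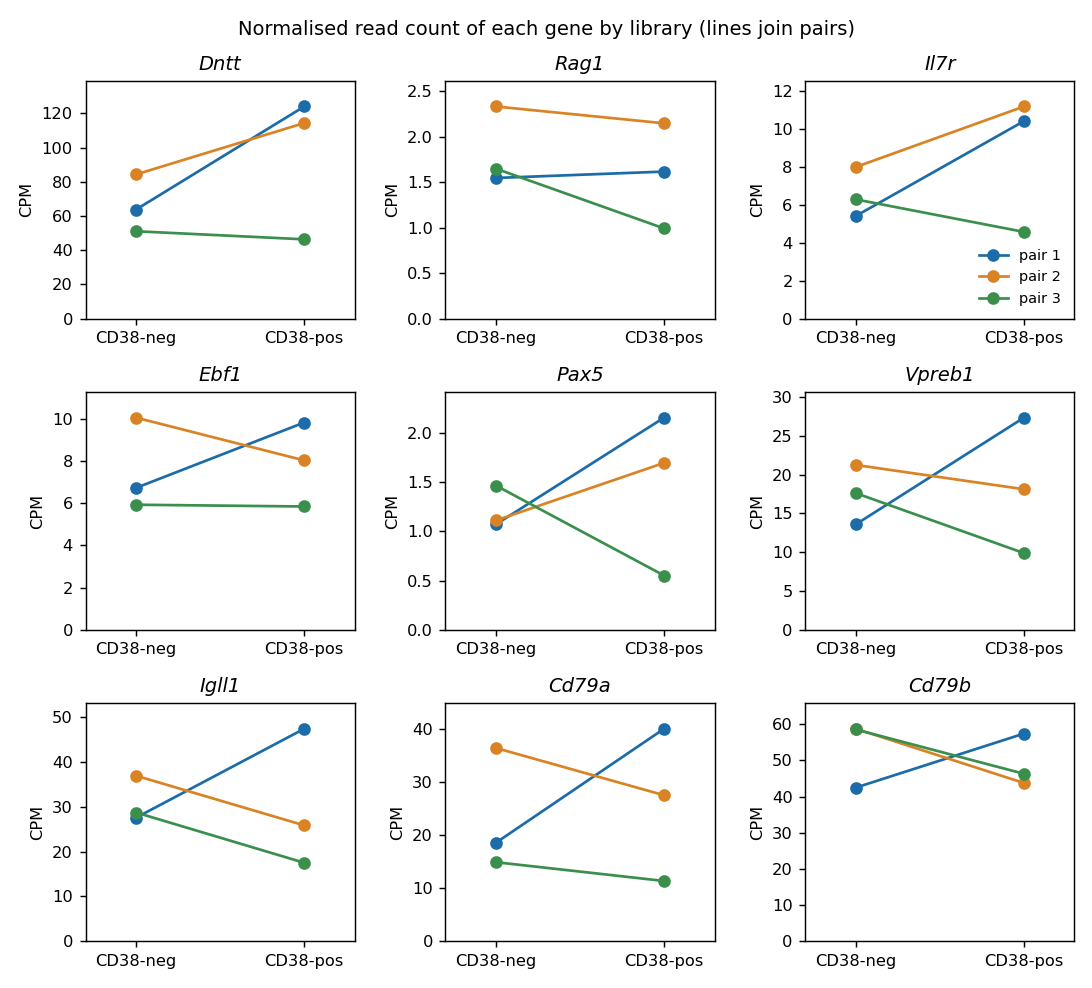
CPM (y axis, from 0) of each of the 9 genes in the CD38-negative and CD38-positive library of each pair, with a line joining the libraries of a pair. The blue line of pair 1 rises and the green line of pair 3 falls in all panels, although the smallest steps, Rag1 in pair 1 and Ebf1 in pair 3, change sign with unscaled library totals.

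Dntt encodes terminal deoxynucleotidyl transferase, the polymerase that adds untemplated bases at antibody gene joints and one of the earliest lymphoid transcripts. It lies on chromosome 19 (GRCm38, 41029275 to 41059525, plus strand). It had 2070, 2022 and 841 reads in CD38-positive libraries 1, 2 and 3, at 124, 114 and 46.4 CPM. The CD38-negative partners had 1071, 1517 and 836 reads, at 63.8, 84.3 and 51.1 CPM. CD38-positive libraries 1 and 2 were thus the highest of the 6, but CD38-positive library 3 was the lowest. The log2 fold change of 0.42 (SE 0.22, 95% interval -0.051 to 0.90) was the largest in size of the 9 genes and did not pass the test (edgeR unadjusted p = 0.0764, adjusted p = 0.926).

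Rag1, the catalytic subunit of the recombinase that cuts antibody and T cell receptor genes, was scarce. It lies on chromosome 2 (101638282 to 101649501, minus strand). It had 27, 38 and 18 reads in the CD38-positive and 26, 42 and 27 reads in the CD38-negative libraries of pairs 1, 2 and 3, which is 0.993 to 2.33 CPM. Both libraries of pair 2 were the highest. Its log2 fold change was -0.25 (SE 0.44), with a 95% interval of -1.20 to 0.70.

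Il7r encodes the alpha chain of the interleukin-7 receptor, which lymphoid progenitors need to survive and expand, and lies on chromosome 15 (9505788 to 9530176, minus strand). It was at 10.4, 11.2 and 4.58 CPM in CD38-positive libraries 1, 2 and 3 and at 5.42, 8.01 and 6.30 CPM in their partners. As for Dntt, CD38-positive libraries 1 and 2 were the highest and library 3 the lowest. The log2 fold change of 0.34 (SE 0.32) had a 95% interval of -0.34 to 1.01.

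Ebf1, an early B cell factor that opens the B lineage programme, lies on chromosome 11 (44617317 to 45008091, plus strand). It had 164, 142 and 106 reads in CD38-positive libraries 1, 2 and 3 and 113, 181 and 97 reads in their partners, or 5.85 to 10.1 CPM. Libraries CD38-positive 1 and CD38-negative 2 were the highest and those of pair 3 the lowest, and the log2 fold change was 0.066 (SE 0.29).

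Pax5, which locks cells into the B lineage by repressing other fates, lies on chromosome 4 (44524757 to 44710487, minus strand) and had the lowest mean CPM as well. It had 36, 30 and 10 reads in CD38-positive libraries 1, 2 and 3 and 18, 20 and 24 reads in their partners. The 3.91-fold range between its highest and lowest CPM was the widest of the 9 genes, and its log2 fold change was 0.14 (SE 0.56, 95% interval -1.05 to 1.34). The antisense gene Gm12462 and the gene 5730488B01Rik overlap Pax5 exons, and had at most 3 and 6 reads in a library. The strand setting of the counting is not given in the sources used here, so reads of such overlapping genes cannot be told apart.

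Vpreb1 and Igll1 encode the paired parts of the surrogate light chain, which stands in for a light chain on pre-B cells. They are neighbours on chromosome 16, with Igll1 at 16860671 to 16863985 and Vpreb1 at 16868403 to 16870843, both on the minus strand. Vpreb1 was at 27.3, 18.1 and 9.88 CPM in CD38-positive libraries 1, 2 and 3 and at 13.6, 21.2 and 17.6 CPM in their partners. Igll1 was at 47.5, 25.9 and 17.5 CPM in CD38-positive and 27.6, 37.0 and 28.7 CPM in CD38-negative libraries. For both genes CD38-positive library 1 was the highest, CD38-positive library 3 the lowest, and the CD38-negative libraries lay between. Their log2 fold changes were -0.019 (SE 0.31) and -0.15 (SE 0.28).

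The CPM ratio of Igll1 to Vpreb1 stayed between 1.43 and 2.03 while Igll1 varied 2.71-fold and Vpreb1 2.77-fold. Vpreb1 reads are the less certain of the pair. Of its 50-base transcript windows, 18.8% also occur in the near-copy Vpreb2, which itself was at 1.05 to 2.22 CPM, and 108 of its exon bases overlap Top3b on the other strand.

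Cd79a and Cd79b encode the chains that carry the signal of the pre-B and B cell receptors. Cd79a lies on chromosome 7 (24897381 to 24902197, plus strand) and Cd79b on chromosome 11 (106311341 to 106314762, minus strand). Cd79a was at 40.0, 27.5 and 11.3 CPM in CD38-positive libraries 1, 2 and 3 and at 18.5, 36.4 and 14.9 CPM in their partners, so both libraries of pair 3 were the lowest. Cd79b was at 57.4, 43.7 and 46.3 CPM in CD38-positive and 42.5, 58.8 and 58.6 CPM in CD38-negative libraries. It was the steadiest of the 9 genes, with a 1.38-fold range against 3.54-fold for Cd79a. Their log2 fold changes were 0.10 (SE 0.29, 95% interval -0.53 to 0.73) and -0.11 (SE 0.22, 95% interval -0.58 to 0.36).

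The balance of the chains differed between pairs. The CPM ratio of Cd79b to Cd79a was 1.43, 1.59 and 4.09 in CD38-positive libraries 1, 2 and 3 and 2.29, 1.61 and 3.94 in their partners. Pair 3 thus stood apart from the other pairs in both populations, because Cd79a was low there and Cd79b was not.

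**Figure D3:**
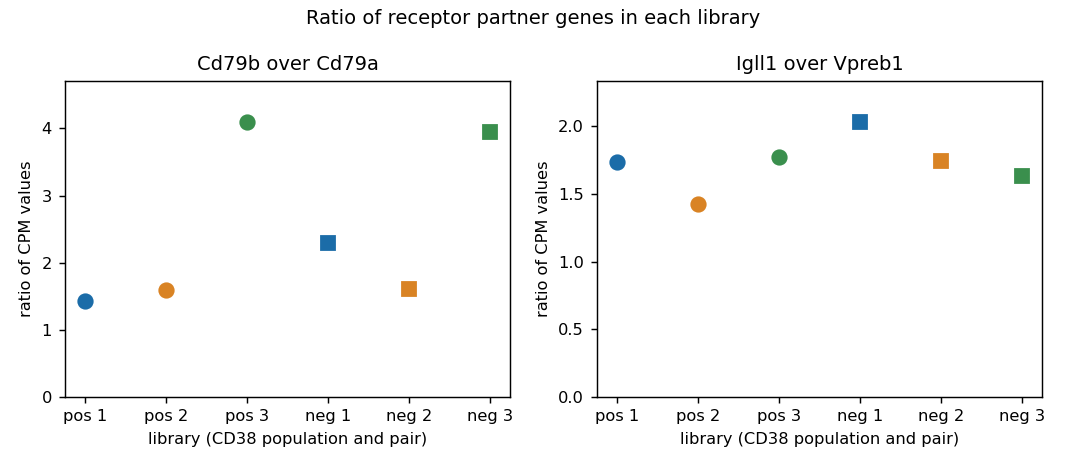
CPM ratio (y axis, from 0) of Cd79b to Cd79a and of Igll1 to Vpreb1 in each library, with circles for CD38-positive and squares for CD38-negative libraries and 1 colour per pair. The Cd79b to Cd79a ratio is 4.09 and 3.94 in the libraries of pair 3 and at most 2.29 elsewhere, while Igll1 to Vpreb1 stays between 1.43 and 2.03.

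As a description over the 6 libraries, log2 CPM of the 9 genes had positive Pearson correlations in all 36 pairings, with a median of 0.74. The highest was between Cd79a and Ebf1 (0.98) and the lowest between Cd79b and Dntt (0.11). All values of a library share its depth, its scaling and its 10 mice. Among the 3 tested genes most like each member, a few belonged to the lists of B lineage genes below. Vpreb3, another pre-B cell receptor component, was the third closest to Cd79a (r = 0.98). Blnk, the adaptor below the pre-B cell receptor, was the second closest to Il7r (r = 0.98), and Vpreb2 the second closest to Rag1 (r = 0.99). The others were in none of these lists, such as Timmdc1, the closest to Cd79a (r = 0.99), and Rad9a, the closest to Igll1 (r = 0.99). With 6 libraries, 24 to 77 of 14784 genes had r above 0.9 with a given member.

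Other genes of the same steps were read from the same fit in 4 lists. None of them passed the adjusted threshold, in either direction. Of 16 pre-B and B cell receptor genes, 8 had fold changes above 0 and 8 below, with a median of 0.028. Lyn, a kinase of the receptor, had a log2 fold change of 0.49 (SE 0.24). The most abundant, Cd24a, was at 454 to 1306 CPM and is not restricted to B cells.

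Of 20 lymphoid and B lineage transcription factors, 11 had fold changes above 0 and 9 below, with a median of 0.017. Sox4, a factor of lymphoid progenitors, had -0.63 (SE 0.23, edgeR unadjusted p = 0.0166, adjusted p = 0.925). It was at 16.6 to 20.5 CPM in CD38-positive and 24.0, 34.0 and 30.9 CPM in CD38-negative libraries, with no overlap. Of all tested genes, 6.53% had no overlap. Sox4 was named for its small p-value in this list, so the separation is not further evidence. Lef1 had 0.46 (SE 0.26). Ikzf1, which encodes Ikaros, had a mean level of 23.8 CPM per kilobase of exon, above Ebf1 and Pax5 on the same scale.

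Of 13 early lymphoid receptor and signalling genes, 9 had fold changes below 0, with a median of -0.23, and 4 had unadjusted edgeR p-values below 0.05, all lower in CD38-positive libraries, where 2.61% of all tested genes were. These were Cd27, Ltb, Ly6d and Il2rg. Without the replicate block 1 gene had such a p-value, and without pair 3 there were 2, while the median ran from -0.11 without pair 2 to -0.38 without pair 3. Within pairs 1, 2 and 3 the list median was -0.14, -0.72 and 0.13, so it lay above 0 in pair 3. Ly6d and Il2rg were higher in the CD38-positive library of pair 1, by 0.35 and 0.27 on the log2 scale. Cd27, a costimulatory receptor of early progenitors and lymphocytes, had -0.67 (SE 0.20, edgeR unadjusted p = 0.00495, adjusted p = 0.893). It was at 37.2, 34.6 and 44.7 CPM in CD38-positive and 48.0, 66.5 and 72.9 CPM in CD38-negative libraries, again with no overlap (6.53% of tested genes). Cd27 too was named for its small p-value, so the separation is not further evidence. Ltb, a lymphotoxin subunit, had -0.57 (SE 0.23). Flt3, the receptor that marks lymphoid-primed progenitors, was at 41.3 to 71.6 CPM with a log2 fold change of 0.088 (SE 0.21), which turned to -0.11 without pair 2. Among the stem cell markers, 9 of 12 had fold changes below 0, with a median of -0.40, and 4 of 12 had an unadjusted edgeR p-value below 0.05 and lay lower in CD38-positive libraries, while 1 lay higher. None passed the adjusted threshold. The median of the stem cell markers was -0.34, -1.04 and 0.36 within pairs 1, 2 and 3, so pair 3 went the other way. The summed level of these markers was 796 to 1701 CPM in the CD38-positive group and 1050 to 2305 CPM in the other, and their part in the difference of the receptor list was not tested.

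Of 12 recombination and end-joining genes, 7 had fold changes above 0, with a median of 0.16, and 0 had an unadjusted edgeR p-value below 0.05. Polm, a polymerase related to terminal transferase, had 0.60 (SE 0.31), and Rag2, the partner of Rag1, 0.42 (SE 0.28). The broadly expressed chromatin proteins Hmgb1 and Hmgb2, which assist the recombinase, were the most abundant of this list.

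Markers of mature B, plasma and other blood cell types were summed by library beside the 9 genes. Mature B cell markers, dominated by Ighm, were at 290 to 673 CPM in CD38-positive and 585 to 842 CPM in CD38-negative libraries. The sums thus mostly follow 1 gene. By gene, 5 of the 10 had fold changes above 0 and 5 below, with a median of 0.029. All 10 had reads in every library, and Ighd, Cr2 and Fcer2a were each at most 5.04 CPM. Others were higher, with Ms4a1 at 3.37 to 17.1 CPM and Bank1 at 9.56 to 15.2 CPM. Plasma cell markers were at 727 to 1021 CPM in CD38-positive and 1123 to 3369 CPM in CD38-negative libraries. All 11 had reads in every library, and 9 of the 11 were tested. Of these 9 markers, 3 had fold changes above 0 and 6 below, with a median of -0.12. Jchain, Igkc and Igha had -4.26, -3.07 and -4.40, while Xbp1, the most abundant by mean, had 0.17. Igha was the 1 tested marker that passed, lower in CD38-positive cells (log2 fold change -4.40, edgeR adjusted p = 0.00246). Its CPM ranges overlapped, with 79.8 CPM in CD38-positive library 3 and 9.90 CPM in CD38-negative library 2. Its call was lost without the replicate block (edgeR log2 fold change -3.36, adjusted p = 0.994) and with unscaled library totals (edgeR adjusted p = 0.0610), and held under the other 8 alternatives. The highest plasma cell sum was in CD38-negative library 3, where the 9 genes were at 186 CPM, the third lowest.

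Plasmacytoid dendritic cells share Dntt and other lymphoid transcripts. Their markers were at 182 to 327 CPM in CD38-positive and 151 to 233 CPM in CD38-negative libraries, and 1 of 9, Klk1, was at 0 in CD38-negative library 3. The defining marker Siglech was at 7.85, 3.90 and 1.55 CPM in CD38-positive libraries 1, 2 and 3 and at 5.54, 7.01 and 0.978 CPM in their partners, lowest in pair 3 as Cd79a was. Irf8 was the most abundant at 59.9 to 254 CPM, so the sums lean on this gene. Its fitted difference was 0.87 (SE 0.22, edgeR unadjusted p = 0.00151, adjusted p = 0.695). By gene, 4 of the 9 had fold changes above 0 and 5 below, with a median of -0.072. Ly6d, the other with an unadjusted edgeR p-value below 0.05, had -0.81 (SE 0.35). T cell markers were at 38.4 to 46.1 CPM in CD38-positive and 41.8 to 56.8 CPM in CD38-negative libraries, and Cd3e and Bcl11b were each at 0 in 4 of 6 libraries. The most abundant, Lat, was at 19.5 to 35.0 CPM and had -0.50 (SE 0.22), so the T cell sums lean on this gene. Of the 10 T cell markers 7 were tested, and 5 of these had fold changes above 0 and 2 below, with a median of 0.13.

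Neutrophil markers took 70125 to 159347 CPM in CD38-positive and 79556 to 127905 CPM in CD38-negative libraries, and erythroid markers 4142 to 10326 and 5936 to 8893 CPM; all of both lists had reads in every library. CD38-positive library 1, the highest for the 9 genes, also had the highest neutrophil and erythroid sums and the lowest stem cell marker sum (796 CPM). CD38-negative library 2, the second highest for the 9 genes, had the highest stem cell marker sum (2305 CPM). CD38-positive library 3, the lowest for the 9 genes, had the lowest erythroid and mature B cell sums, the latter dominated by Ighm. The part of these other cells in the levels of the 9 genes was not tested.

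**Figure D4:**
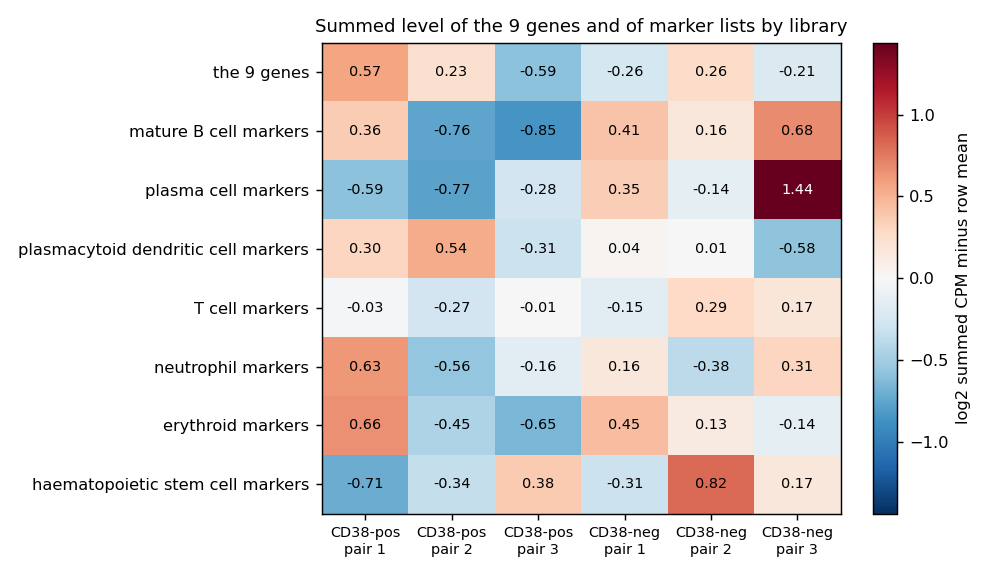
Summed CPM of the 9 genes and of 7 marker lists in each library, as log2 minus the mean of the row (colour and printed value; red is higher). The 9 genes are highest in CD38-positive library 1 (0.57) and lowest in CD38-positive library 3 (-0.59), and no marker row has the same order of libraries.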

How the data were processed

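RNA was isolated from sorted HSCs and sequenced on Illumina libraries, per the labels' protocols. The authors deposited raw read counts per Ensembl gene, 1 file per library. The tools cutadapt, STAR and HTSeq 0.6.1p1 and the build GRCm38 (mm10) are named in the submitters' processing notes; the annotation release and strand setting are not given in the sources used here. Symbols matched 49326 of 49585 identifiers, and coordinates and exon lengths came from GENCODE M21 (GRCm38). Genes were filtered with filterByExpr, scaled by TMM and tested with edgeR 4.0.16 in R 4.3.3 (quasi-likelihood F-test, pair plus population, all 6 libraries), with Benjamini-Hochberg adjustment over 14785 genes and a threshold of 0.05. Standard errors were derived from the F statistic. The procedure was tested on simulated data that held no differences between pairs. It called 41 of 100 simulated 2-fold changes and 91 of 100 simulated 4-fold changes, along with 3 unchanged genes. Most 2-fold changes were thus missed there. The pairing comes from the design text; once population means were removed, the libraries of pairs 1, 2 and 3 had correlations of 0.34, 0.12 and 0.24, so pair was kept as a replicate block. Whether replicates of a population came from separate sorts is not stated, so p-values measure the spread between these libraries. Log2 CPM used for correlations had a prior count of 2. The 9 genes and 11 lists were chosen with earlier results of these data known. Named list genes were those past the threshold, the 3 most abundant, or the 2 with the smallest p in a list. Flt3, Ly6d, Il2rg, Siglech, Cd3e, Bcl11b, Cr2, Fcer2a, Ms4a1, Bank1, Klk1, Procr, Slamf1 and Mecom were added after values were seen. Alternatives were DESeq2 1.42.0, limma-voom (limma 3.58.1), other scalings and filters, no block, and each pair left out. One gene of the receptor list is not reported here by name.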

Additional observations from a re-analysis of the deposited data

How the results depend on the processing

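None of the 9 genes passed the adjusted threshold under any of the 10 alternatives, and Dntt and Il7r stayed above 0 and Rag1 below 0 in each; of 90 alternative fold changes, 12 changed sign. Without the replicate block Vpreb1 turned to 0.076, and in limma-voom to 0.018. The other changes of sign came from leaving out a pair: the range was -0.40 to 0.37 for Cd79a, -0.38 to 0.035 for Cd79b, -0.17 to 0.26 for Ebf1, -0.34 to 0.81 for Pax5, -0.53 to 0.39 for Vpreb1 and -0.61 to 0.13 for Igll1. In particular Cd79a (-0.40), Ebf1 (-0.17) and Pax5 (-0.34) fell below 0 without pair 1; without pair 2 Cd79b was at 0.035, Vpreb1 at 0.089, Igll1 at 0.033 and Pax5 at -0.12; without pair 3 Cd79b was at 0.0034, Vpreb1 at 0.39 and Igll1 at 0.13. The count of all genes past the threshold, 2 in the paired fit, was 0 without the replicate block (417 at an unadjusted edgeR p below 0.05), 0 with unscaled totals (595), 11 in DESeq2, 7 with DESeq2 size factors, 80 with no filter and 13 with a mean of at least 10 counts, and 2 to 41 in the fits that left out 1 pair. In those fits the median of the recombination list ran from 0.062 (without pair 2) to 0.26 (without pair 3) and that of the early lymphoid list from -0.38 to -0.11. The transcription factor median, 0.017, turned to -0.074 without pair 1 and -0.14 without pair 3 (and to -0.0094 with unscaled totals), and the receptor list median, 0.028, ran from -0.15 without pair 1 to 0.15 without pair 3. Flt3 ran from -0.11 (without pair 2) to 0.31 (without pair 1). With unscaled totals, chosen for this count after the data were seen, 1 gene in place of 0 was higher in CD38-positive cells in pair 3. The cause of these shifts was not tested. Depth limits Pax5 and Rag1 most, at 10 to 42 reads a library.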

Other observations

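The recombinase partners Rag1 and Rag2 lie close together on chromosome 2, with 5752 bases between their annotated ends, and the comparison of their levels was made after the values were seen. Rag2 (101624718 to 101632529) had 241, 248 and 149 reads in CD38-positive libraries 1, 2 and 3 and 125, 206 and 133 reads in their partners, while Rag1 had at most 42. Per kilobase of exon, Rag2 exceeded Rag1 by 12.6 to 17.2-fold in CD38-positive and 9.28 to 9.51-fold in CD38-negative libraries. These ratios are imprecise, since Rag1 had only 18 to 42 reads a library, and their difference between populations was not tested. Neither gene alone differed (edgeR unadjusted p = 0.582 for Rag1 and 0.148 for Rag2). The protein-coding gene B230118H07Rik spans the locus and shares 80 exon bases with Rag1; it had 351 to 613 reads. Its part in the ratio was not tested.

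Ighm, the heavy chain constant region gene of immature and mature B cells, was at 510, 198 and 164 CPM in CD38-positive libraries 1, 2 and 3 and at 580, 463 and 725 CPM in their partners. It was lower in the CD38-positive library of each pair, at -1.19 on the log2 scale (SE 0.30, edgeR unadjusted p = 0.00137, adjusted p = 0.695), while the Cd79a and Cd79b chains that pair with its product were higher in pair 1 and lower in pairs 2 and 3. Ighd, of the same marker list, was higher in the CD38-positive library of each pair. It had 0.95 (SE 0.46, edgeR unadjusted p = 0.0563, adjusted p = 0.926) and was scarce, at 0.673 to 5.04 CPM. Of the 10 mature B cell markers, 5 had fold changes above 0 and 5 below.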
